A study of Mus musculus with 22 samples.

Results

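The genes described here are Ciita, the master regulator of MHC class II transcription, and the genes of the class II antigen presentation machinery that it drives: Cd74, H2-Aa, H2-Ab1, H2-Eb1, H2-Eb2, H2-Oa, H2-Ob, H2-DMa and H2-DMb1. The 10 genes were chosen by name with earlier results of these data known. Each was read from the probe set that the platform's gene table assigns to it alone. This gave 9 of the 10 genes among 19938 genes of the arrays, each with 1 probe set. The only probe set of H2-DMb1 also names H2-DMb2, so H2-DMb1 was not analysed alone. Ciita lies on mouse chromosome 16 and all of the H2 genes on chromosome 17.

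The cells came from tibialis anterior muscle of C57B6/J mice injured by an injection of cardiotoxin, a venom peptide that destroys the fibres and so starts regeneration. Leukocytes carrying CD45 were pulled from the muscle with magnetic beads at days 1, 2, 4 and 8 and sorted into 2 subsets, labelled Gr1+/Cx3cr1low and Gr1-/Cx3cr1high and called Gr1-positive and Gr1-negative cells below. The protocol stains for Gr1 and Cx3cr1 but names the same subsets Ly6C+ F4/80low and Ly6C- F4/80high, and no other gate, such as one against dendritic cells or lymphocytes, is named in the sources used here. The 8 groups of 1 day and 1 subset had 3 biological replicates each, apart from day 8 Gr1-positive cells with a single array, so 22 Affymetrix arrays were measured. Every group was injured, so no uninjured muscle enters any comparison. No genotype other than the strain is labelled, and the age and the number of animals behind a replicate are not given in the sources used here, so the p-values measure the spread between these replicates. Levels are given as log2 signal, mean ± SD of the 3 arrays of a group. Differences are on the log2 scale, ± the SE of the limma fit, each with limma's p adjusted over 19938 genes. An adjusted p under 0.05 was the threshold for a pass.

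MHC class II molecules are pairs of an alpha and a beta chain that carry peptides from the endosomal pathway to the cell surface, where CD4 T cells read them. The alpha and beta chains are built around the invariant chain Cd74, which blocks the groove until it is digested in endosomes. H2-DM then removes the last fragment of it and edits the peptides, and H2-DO, made by H2-Oa and H2-Ob, binds H2-DM and restrains it. Ciita does not bind DNA itself. It is recruited to an assembly of RFX, CREB and NF-Y proteins on the X and Y boxes that precede class II genes, and dendritic cells, B cells and activated macrophages are the main cells that express it.

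Stretches of 4 promoters are shown because the levels of these genes behaved in different ways in the sorted cells: H2-Ob and H2-Oa differed between the subsets on every day, while H2-Eb1 and H2-Aa stayed near the top of the range throughout. Capitals mark an X core spelled AG, any letter, AAC, any 2 letters and ATG, and a Y box spelled ATTGG, searched and marked on both strands (a Y box on the other strand reads CCAAT, as at the end of the H2-Eb1 stretch) within the 250 bases before each RefSeq gene start of the GRCm38.p6 build, and the motifs do not overlap each other. Each stretch is written 5′ to 3′ along the gene's own strand.
H2-Ob at chr17:34238792-34238877, plus strand: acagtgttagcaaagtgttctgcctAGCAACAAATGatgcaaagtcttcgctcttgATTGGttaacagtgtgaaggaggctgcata
H2-Oa at chr17:34092281-34092365, plus strand: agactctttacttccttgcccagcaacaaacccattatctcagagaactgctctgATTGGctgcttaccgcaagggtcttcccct
H2-Eb1 at chr17:34305750-34305837, plus strand: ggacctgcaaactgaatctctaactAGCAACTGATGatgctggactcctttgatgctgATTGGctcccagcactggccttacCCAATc
H2-Aa at chr17:34287842-34287926, minus strand: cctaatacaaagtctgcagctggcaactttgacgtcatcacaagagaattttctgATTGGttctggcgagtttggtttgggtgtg
Of the 10 genes, 7 had a window in the RefSeq promoter table, with 8 windows in all. Each of the 7 genes had a window with a Y box, and a further H2-DMa window held neither motif. Of 32851 promoter windows 33.8% held a Y box. The X core was found in 4 of the 7 genes, H2-DMb1, H2-Eb1, H2-Eb2 and H2-Ob, against 0.715% of all windows. In the same 4 genes the X core stood before a Y box on 1 strand, an arrangement held by 18 windows of the table, or 0.0548%. The letters between X core and Y box numbered 20 in H2-Ob, 22 in H2-Eb1 and H2-Eb2, and 23 in H2-DMb1. A match of letters is a description and no measurement of binding. Absence of this spelling of the X core does not show that a gene lacks an X box.

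Array medians lay between 7.02 and 7.18, and precision is limited by how few arrays a group has. The arrays deviated from the mean of their group by a root mean square of 0.10 to 0.25 over all genes, with the highest value in replicate 1 of the day 2 Gr1-positive cells. The mean over 8 macrophage markers, all measured, lay between 11.33 and 12.02 in the arrays, which does not measure how pure the sorted cells were. Single markers moved: between days 2 and 4, 2 of the 8 rose and 1 fell in Gr1-negative cells. In Gr1-positive cells 3 rose and 1 fell. Over all genes 14.8% and 19.2% passed in either direction at that step. Because RNA of a sorted population is averaged over its cells, a smaller number of cells of one type and less RNA per cell cannot be told apart in any result below. The H2 genes are a family of similar sequences, so a probe set can take up some signal of a relative.

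**Figure D1:**
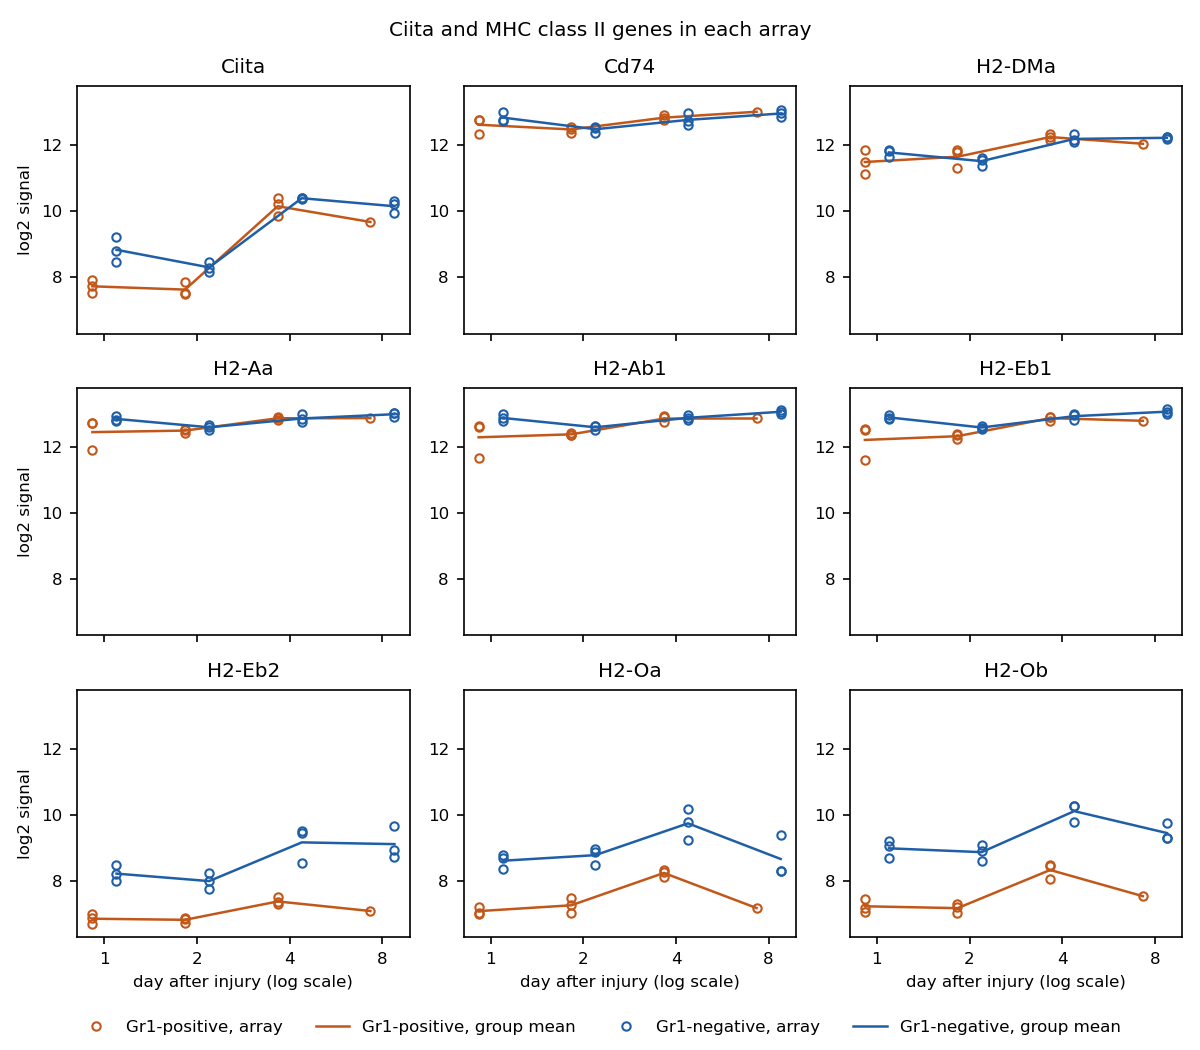
Log2 signal of each of the 9 measured genes in every array (circles) by day after injury on a log axis, the subsets drawn side by side, with lines through the group means of the Gr1-positive (orange) and Gr1-negative (blue) cells. Ciita, H2-Eb2, H2-Oa and H2-Ob move over 2.35 to 2.93 log2 units between group means, while Cd74, H2-Aa, H2-Ab1 and H2-Eb1 stay in a band near the top in both subsets.

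Ciita was low in the first 2 days, lowest in Gr1-positive cells, and rose steeply in both subsets by day 4. In Gr1-positive cells the arrays read 7.73, 7.92 and 7.54 at day 1 and 7.54, 7.86 and 7.49 at day 2. In Gr1-negative cells they read 8.48, 8.80 and 9.23 at day 1 and 8.48, 8.27 and 8.16 at day 2. The 2 subsets did not overlap on either day, with every Gr1-negative array above every Gr1-positive one. At day 4 the Gr1-positive arrays read 10.41, 10.21 and 9.85 and the Gr1-negative arrays 10.38, 10.41 and 10.41. Day 8 gave 9.68 in the single Gr1-positive array and 10.31, 10.21 and 9.95 in Gr1-negative cells. The subsets overlapped at day 4, and every array of days 4 and 8 lay above every array of days 1 and 2.

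From day 2 to day 4 Ciita rose 5.75-fold in Gr1-positive cells (2.52 ± 0.17, adjusted p = 6.22e-08, limma) and 4.28-fold in Gr1-negative cells (2.10 ± 0.17, adjusted p = 8.76e-07). The test of the difference between those steps did not pass for Ciita (-0.43 ± 0.24, 95% interval from -0.93 to 0.08, adjusted p = 0.986). At day 1 Ciita was higher in Gr1-negative cells, by 1.11 ± 0.17 or 2.15-fold (adjusted p = 0.00212). At day 2 the difference was 0.67 ± 0.17 (adjusted p = 0.0367), and it missed the threshold when any 1 of 5 of the 6 day 2 arrays was left out, with adjusted p between 0.0763 and 0.134. The exception was replicate 2 of the Gr1-positive cells. At day 4 the difference was 0.24 ± 0.17 with a 95% interval from -0.12 to 0.60 (adjusted p = 0.557), and at day 8 it was 0.48 ± 0.24 (adjusted p = 0.317) against 1 array. The narrowing from day 1 to day 4, by -0.87 ± 0.24 with a 95% interval from -1.37 to -0.36, did not pass after adjustment (adjusted p = 0.317). Between days 1 and 2 Ciita went from 8.84 ± 0.38 to 8.30 ± 0.16 in Gr1-negative cells (adjusted p = 0.0786), and without replicate 1 of day 1 this decrease of 0.71 passed (adjusted p = 0.0471). In Gr1-negative cells Ciita was still 2.50-fold above its day 1 level at day 8 (1.32 ± 0.17, adjusted p = 2.79e-05). In order of group means, the Gr1-negative cells of day 4 led, followed by the Gr1-negative cells of day 8 and the Gr1-positive cells of day 4, whose arrays overlap each other.

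The classical chains behaved differently. H2-Aa encodes the alpha chain and H2-Ab1 the beta chain of I-A, the class II molecule that C57BL/6 mice place on the cell surface. H2-Eb1 encodes the beta chain of I-E, whose alpha chain gene H2-Ea is defective in this strain, and the H2-Ea probe set read 5.53 to 6.06 in all arrays. The group means of H2-Aa lay between 12.46 ± 0.47 and 13.00 ± 0.07, those of H2-Ab1 between 12.30 ± 0.55 and 13.07 ± 0.05, and those of H2-Eb1 between 12.22 ± 0.54 and 13.08 ± 0.08. In each of the 3 genes the lowest group was the Gr1-positive cells of day 1 and the highest the Gr1-negative cells of day 8. Cd74, the invariant chain, ranged from 12.48 ± 0.09 in the Gr1-positive cells of day 2 to 12.96 ± 0.10 in the Gr1-negative cells of day 8, with 13.02 in the single Gr1-positive array of that day.

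These 4 signals stand near the top of the measured range. By mean level Cd74, H2-Aa, H2-Ab1 and H2-Eb1 rank 47, 44, 49 and 51 of 19938 genes, and their highest arrays lie 0.79 to 0.90 below the table's maximum of 13.949. A rank places a signal and not an amount of transcript, since probes differ in response. Array signals near the top can be compressed, which makes differences look smaller, and whether these were was not tested. The span of the 8 group means was 0.53 for Cd74, 0.54 for H2-Aa, 0.77 for H2-Ab1 and 0.86 for H2-Eb1. The other 96 of the 100 genes with the highest mean had a median span of 0.29, against 0.45 for all genes. Of those 96 genes 10.4% passed between days 2 and 4 in Gr1-positive cells, against 19.2% of all genes, and 11.5% against 14.8% in Gr1-negative cells. H2-DMa, the alpha chain of the peptide editor H2-DM, ranks 297, and its highest array lies 1.59 below the maximum.

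**Figure D2:**
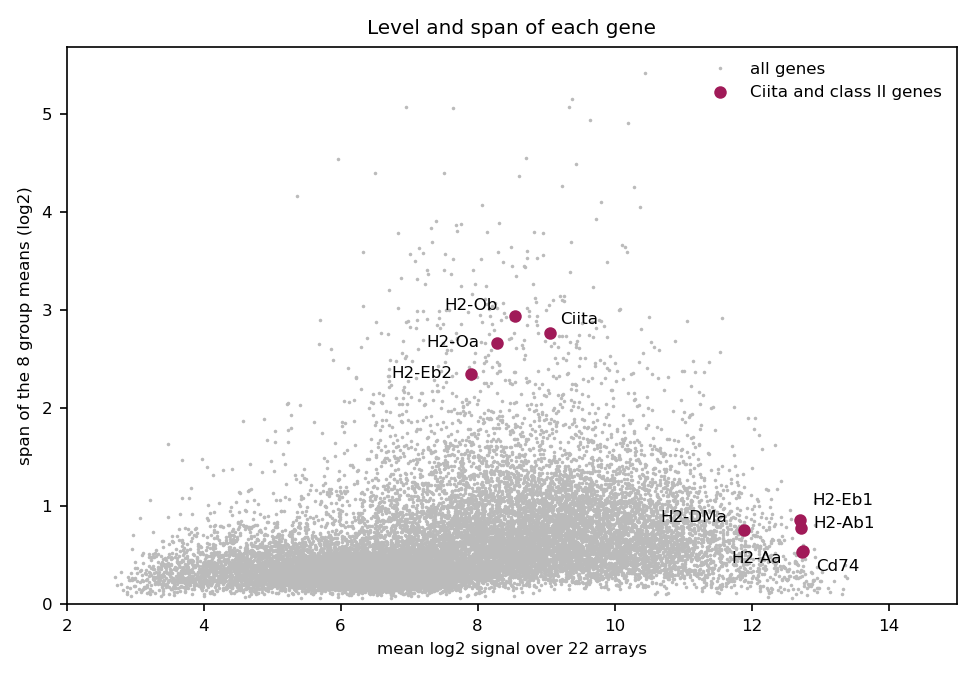
Each point is a gene, placed by its mean log2 signal over 22 arrays (horizontal axis) and the span of its 8 group means in log2 units (vertical axis), with Ciita and the class II genes coloured and named among all 19938 genes. Cd74, H2-Aa, H2-Ab1 and H2-Eb1 sit at means of 12.71 to 12.74 with spans of 0.53 to 0.86, whereas Ciita, H2-Eb2, H2-Oa and H2-Ob sit at means of 7.90 to 9.06 with spans of 2.35 to 2.93.

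Within the Gr1-positive cells of day 1, replicate 3 was set apart for the classical genes. H2-Aa read 12.72, 12.73 and 11.92 in replicates 1, 2 and 3, H2-Ab1 read 12.61, 12.63 and 11.66, and H2-Eb1 read 12.51, 12.55 and 11.60. Cd74 read 12.76, 12.77 and 12.35. In the Gr1-negative cells of that day H2-Eb1 read 12.84, 12.99 and 12.88, so the subsets did not overlap. The difference of H2-Eb1 at day 1 was 0.68 ± 0.16 (adjusted p = 0.0585) and that of H2-Ab1 0.59 ± 0.17 (adjusted p = 0.143). With day and replicate number as a block both reached the threshold, at adjusted p = 0.0217 and 0.05. Left without replicate 3 of the Gr1-positive cells, they were 0.37 (adjusted p = 0.0541) and 0.27 (adjusted p = 0.221), without the block. The H2-Eb1 difference passed without Gr1-positive replicate 1 (0.83, adjusted p = 0.0428) or replicate 2 (0.84, adjusted p = 0.025). H2-Aa and Cd74 did not pass between the subsets on any day.

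From day 2 to day 4 the classical genes moved less than Ciita on the log2 scale in both subsets. In Gr1-positive cells H2-Eb1 went from 12.25, 12.36 and 12.39 to 12.93, 12.92 and 12.79, with no overlap, a rise of 0.55 ± 0.16 (adjusted p = 0.0233). It missed the threshold without replicate 1 of day 2 (0.0707 adjusted), or without replicates 1 (0.0732) or 2 (0.0672) of day 4. Cd74 went from 12.56, 12.50 and 12.39 to 12.82, 12.93 and 12.77, also without overlap (0.36 ± 0.12, adjusted p = 0.0393). Leaving out any day 2 or day 4 array other than replicate 1 of day 2 took Cd74 over the threshold, to adjusted p between 0.057 and 0.138. The steps of H2-Ab1 (0.48 ± 0.17, adjusted p = 0.0523) and H2-Aa (0.37 ± 0.15, adjusted p = 0.0904) did not pass. In Gr1-negative cells none of the 4 passed, with steps of 0.26 ± 0.15 for H2-Aa and 0.29 ± 0.17 for H2-Ab1.

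Over the longer interval from day 1 to day 4, Gr1-positive cells gained H2-Eb1 (0.66 ± 0.16, adjusted p = 0.00486), H2-Ab1 (0.57 ± 0.17, adjusted p = 0.0154) and H2-Aa (0.42 ± 0.15, adjusted p = 0.0443). The low array of day 1 carried a large share of these values. Without it H2-Eb1 was 0.35 higher and still passed (adjusted p = 0.00698), H2-Ab1 was 0.25 higher (adjusted p = 0.0511) and H2-Aa 0.15 higher (adjusted p = 0.315). H2-Ab1 was also lost without replicate 2 of day 4 (adjusted p = 0.054), and H2-Aa without any 1 of the day 4 arrays (adjusted p = 0.0661 to 0.121). In Gr1-negative cells H2-Aa stood at 12.86 ± 0.09 at day 1 and 12.87 ± 0.13 at day 4, a difference of 0.01 with a 95% interval from -0.30 to 0.32. H2-Ab1 stood at 12.89 at both days there, with an interval from -0.35 to 0.35.

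H2-DMa rose in both subsets between days 2 and 4. The Gr1-positive arrays went from 11.32, 11.86 and 11.79 to 12.24, 12.36 and 12.16. The Gr1-negative arrays went from 11.39, 11.61 and 11.57 to 12.09, 12.35 and 12.15. The days did not overlap in either subset. The rise was 0.59 ± 0.15 or 1.51-fold in Gr1-positive cells (adjusted p = 0.00876) and 0.68 ± 0.15 or 1.60-fold in Gr1-negative cells (adjusted p = 0.00424). In Gr1-positive cells it rested in part on the low replicate 1 of day 2, without which it was 0.42 (adjusted p = 0.0575). At day 8 H2-DMa read 12.26, 12.25 and 12.18 in Gr1-negative cells and 12.05 in the Gr1-positive array. The H2-DMa levels of the subsets overlapped at days 1, 2 and 4.

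H2-Ob and H2-Oa, the beta and alpha chains of the H2-DM inhibitor H2-DO, and H2-Eb2, an E-beta-like chain gene, formed the group that separated the subsets. H2-Ob read 7.44, 7.19 and 7.07 in the Gr1-positive arrays of day 1 and 8.69, 9.06 and 9.22 in the Gr1-negative ones. At day 2 it read 7.29, 7.03 and 7.21 against 8.61, 8.91 and 9.10, and at day 4 it read 8.47, 8.46 and 8.07 against 9.79, 10.28 and 10.28. The single Gr1-positive array of day 8 read 7.54, against 9.75, 9.31 and 9.30. No Gr1-positive array of any day reached the lowest Gr1-negative array of H2-Ob, 8.61. The difference was 1.76 ± 0.18 at day 1 (3.38-fold, adjusted p = 2.35e-05), 1.69 ± 0.18 at day 2 (adjusted p = 4.49e-05), 1.78 ± 0.18 at day 4 (adjusted p = 2.02e-05) and 1.91 ± 0.25 at day 8 (adjusted p = 0.000465). For this and every other gene, the day 8 test sets 3 arrays against 1, with the variance of that lone array borrowed from the remaining groups.

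H2-Oa showed a gap of like size. Its Gr1-positive arrays read 7.01, 7.03 and 7.22 at day 1 and 7.03, 7.27 and 7.49 at day 2, against 8.35, 8.70 and 8.79 and then 8.48, 8.89 and 8.98 in Gr1-negative cells. At day 4 the arrays read 8.27, 8.33 and 8.13 against 9.25, 10.19 and 9.80, and at day 8 the single array at 7.18 stood against 9.39, 8.31 and 8.30. The subsets were separate on each day. The differences were 1.52 ± 0.25 at day 1 (adjusted p = 0.00325), 1.52 ± 0.25 at day 2 (adjusted p = 0.00289), 1.50 ± 0.25 at day 4 (adjusted p = 0.00396) and 1.49 ± 0.35 at day 8 (adjusted p = 0.0357).

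H2-Eb2 in Gr1-positive cells read 7.01, 6.87 and 6.69 at day 1, 6.89, 6.74 and 6.84 at day 2, 7.29, 7.50 and 7.35 at day 4 and 7.09 at day 8. The Gr1-negative arrays read 8.21, 7.99 and 8.47, then 8.00, 7.75 and 8.24, then 8.55, 9.44 and 9.52, and 9.68, 8.94 and 8.73 at day 8. Again every Gr1-negative array of a day lay above the Gr1-positive ones. The difference was 1.37 ± 0.23 at day 1 (adjusted p = 0.00472), 1.18 ± 0.23 at day 2 (adjusted p = 0.00908), 1.79 ± 0.23 at day 4 (adjusted p = 0.000345) and 2.02 ± 0.33 at day 8 (adjusted p = 0.00337). At day 2 it missed the threshold without Gr1-negative replicate 3 (1.06, adjusted p = 0.057). The Gr1-positive arrays of H2-Ob, H2-Oa and H2-Eb2 at days 1 and 2, from 6.69 to 7.49, lay near the array medians of 7.02 to 7.18. Signals there can hold much background, which can make a difference look smaller, and how much they held was not tested.

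**Figure D3:**
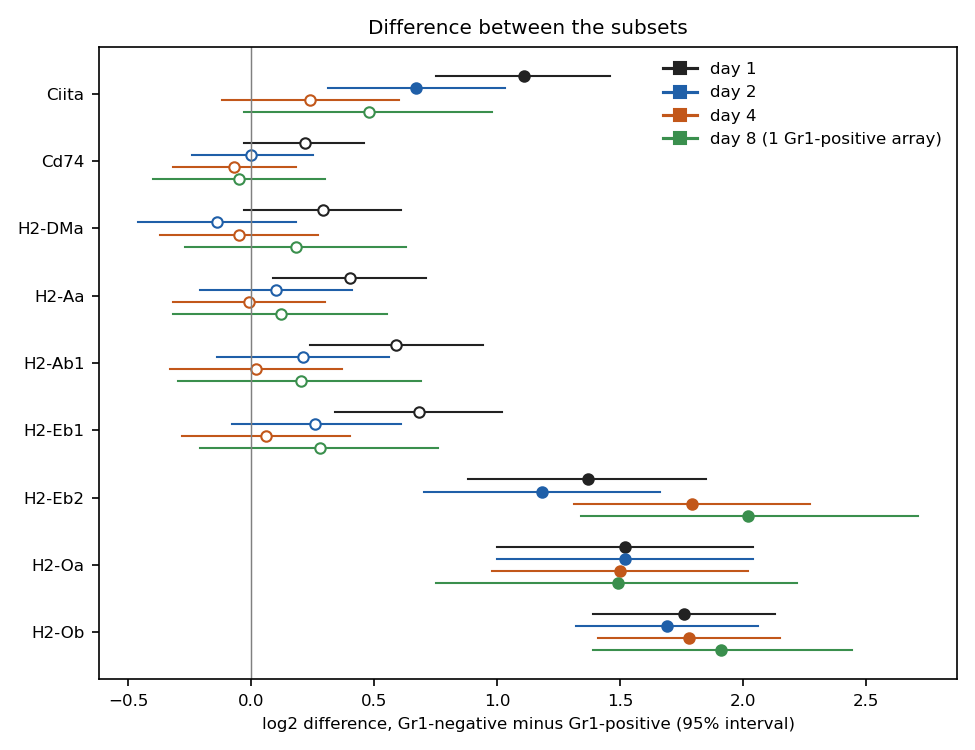
Log2 difference between the subsets, Gr1-negative minus Gr1-positive, for each gene (rows) at each day (colours), with 95% intervals of the limma fit; filled points passed at an adjusted p under 0.05 and open points did not. H2-Eb2, H2-Oa and H2-Ob pass at days 1, 2 and 4 with differences of 1.18 to 1.79, and at day 8 against 1 Gr1-positive array whose spread is taken from the other groups, Ciita passes at days 1 and 2, and the open points lie between -0.14 and 0.68.

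The counts that follow are descriptions, since the genes and lists were chosen with earlier results of these data known. Counted over the 9 genes, day 1 had 4 that were higher in Gr1-negative cells (Ciita, H2-Eb2, H2-Oa and H2-Ob), where 0.682% of all genes were. Their median difference was 0.68, against 0.00 over all genes. At day 2 the same 4 genes passed, where 2.85% of all genes were, and the median of the 9 was 0.26. At day 4 there were 3 of 9 (H2-Eb2, H2-Oa and H2-Ob) against 0.547%, with a median of 0.06, and at day 8 again those 3 against 1.33%, with a median of 0.28. None of the 9 was lower in Gr1-negative cells on any day, where 0.176% of all genes were at day 1, 0.682% at day 2, 0.171% at day 4 and 0.692% at day 8. The change of the subset difference passed in none of the 9 genes by limma between days 1 and 2, 2 and 4 or 1 and 4, where 0%, 0.015% and 0.0953% of all genes passed. At an unadjusted p under 0.05 the counts were 0, 0 and 3 of the 9 genes, against 3.26%, 5.51% and 5.83% of all genes.

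The step from day 2 to day 4 was the main rise in time. In Gr1-negative cells 5 of the 9 genes rose, Ciita, H2-Ob, H2-Eb2, H2-Oa and H2-DMa, where 8.15% of all genes rose, with a median step of 0.68 against -0.07 over all genes. In Gr1-positive cells 6 of the 9 rose, Ciita, H2-Ob, H2-Oa, H2-DMa, H2-Eb1 and Cd74, where 11.8% of all genes rose, with a median of 0.56 against -0.06. In both subsets the arrays of all 9 genes at day 4 lay above those of day 2, a pattern of 15.4% of all genes among Gr1-negative and 17% among Gr1-positive arrays. H2-Ob rose 2.36-fold in Gr1-negative (1.24 ± 0.18, adjusted p = 0.000101) and 2.22-fold in Gr1-positive cells (1.15 ± 0.18, adjusted p = 0.000139). H2-Oa rose by 0.96 ± 0.25 in Gr1-negative cells (adjusted p = 0.0119) and by 0.98 ± 0.25 in Gr1-positive cells (adjusted p = 0.00818). The H2-Oa call in Gr1-negative cells was lost without replicate 1 of day 2 (0.81, adjusted p = 0.0669) or replicate 2 of day 4 (0.74, adjusted p = 0.0723). H2-Eb2 rose by 1.17 ± 0.23 in Gr1-negative cells (adjusted p = 0.00163), and its step of 0.56 in Gr1-positive cells did not pass.

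**Figure D4:**
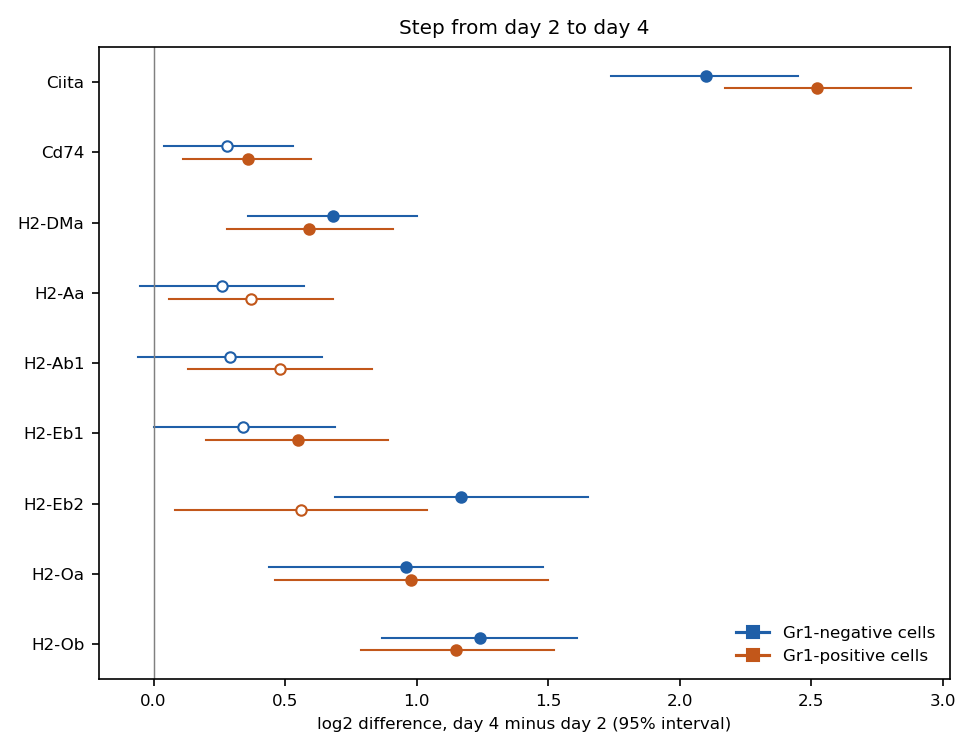
Log2 difference of day 4 minus day 2 for each gene (rows) in Gr1-negative (blue) and Gr1-positive (orange) cells, with 95% intervals of the limma fit; filled points passed at an adjusted p under 0.05 and open points did not. Ciita has the largest steps, 2.10 and 2.52, and every gene lies above 0 in both subsets.

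Between days 1 and 2 none of the 9 passed by limma in Gr1-negative cells, where 4.88% of all genes did, and none in Gr1-positive cells, where 0.291% did. An unadjusted p under 0.05 was found in 2 of the 9 in Gr1-negative cells, against 18.2% of all genes, and in 0 of the 9 in Gr1-positive cells, against 12.3%. From day 1 to day 4, 4 of the 9 rose in Gr1-negative cells (Ciita, H2-Eb2, H2-Oa and H2-Ob) against 15.5% of all genes. In Gr1-positive cells 7 of the 9 rose over that interval, all but Cd74 and H2-Eb2, against 16.2% of all genes.

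From day 4 to day 8 the H2-DO genes fell in Gr1-negative cells while the remaining 7 genes did not pass, where 7.34% of all genes fell. H2-Oa fell by 1.08 ± 0.25 on the log2 scale (adjusted p = 0.0135), and replicate 1 of day 8, at 9.39, overlapped the day 4 arrays. H2-Ob decreased by 0.66 ± 0.18 (adjusted p = 0.0259), without overlap. The H2-Oa call was lost without replicate 2 of day 4 (adjusted p = 0.0665) or replicate 2 of day 8 (adjusted p = 0.0729). The H2-Ob call was lost without replicate 2 (adjusted p = 0.0935) or 3 (adjusted p = 0.0821) of day 4, or replicate 2 (adjusted p = 0.105) or 3 (adjusted p = 0.0592) of day 8. The same differences in Gr1-positive cells, day 8 minus day 4, were -1.07 for H2-Oa and -0.79 for H2-Ob, with a single array at day 8. In Gr1-positive cells none of the 9 passed by limma against the single array of day 8, where 6.21% of all genes passed. An unadjusted p under 0.05 was found there in 2 of the 9, against 21.6% of all genes. Without replicate 3 of day 4, H2-Ob was 0.92 log2 units lower at day 8 in those cells and passed (adjusted p = 0.0394).

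From day 1 to day 8 in Gr1-negative cells, Ciita, H2-Eb2 and H2-DMa rose, where 8.68% of all genes did. H2-Eb2 was 0.90 ± 0.23 higher (adjusted p = 0.00928), and this call was lost without replicate 2 of day 1 (0.78, adjusted p = 0.0525) or replicate 1 of day 8 (0.62, adjusted p = 0.0606). H2-DMa was 0.44 ± 0.15 higher (adjusted p = 0.0484) and missed the threshold without any 1 of the 6 arrays (adjusted p = 0.0688 to 0.154). The H2-Ob difference over this interval passed only without replicate 3 of day 1 among the arrays left out (0.58, adjusted p = 0.0464).

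How closely the genes moved together across the 22 arrays is given as Pearson r with no test, because arrays share days and subsets. H2-Aa and H2-Ab1 had r = 0.98, and H2-Ab1 and H2-Eb1 had 0.99. After the group means were taken away, both pairs still had 0.98, with the low day 1 array among the points. H2-Oa and H2-Ob had 0.95 across arrays and 0.72 within groups, and H2-Eb2 and H2-Ob had 0.95 and 0.70. Ciita was closest to H2-DMa, at 0.87 across arrays and 0.45 within groups. H2-Eb1 had 0.81 with H2-DMa and 0.80 with Ciita. The lowest r of any pair was 0.28, for Cd74 and H2-Oa, and H2-Oa, H2-Ob and H2-Eb2 had 0.48 to 0.74 with H2-Aa, H2-Ab1 and H2-Eb1.

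Genes for proteins that recruit Ciita to class II promoters were read as a list. Of the 7 class II promoter factors measured, Rfx5, the subunit of RFX that contacts the X box, was the one that passed between days 2 and 4. Its rise was 0.67 ± 0.13 in Gr1-negative cells (adjusted p = 0.0012) and 0.44 ± 0.13 in Gr1-positive cells (adjusted p = 0.0169). The list median was 0.06 for Gr1-negative and -0.15 for Gr1-positive cells. From day 1 to day 4 in Gr1-positive cells, 1 of the 7 was higher and 2 lower, where 5105 of 19938 genes passed. None of the 7 passed between the subsets at day 1 or day 4, where 171 and 143 genes passed.

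Of the list for endosomal processing and turnover of class II, which also holds the chain gene H2-Ea, 10 of 11 genes were measured. Marchf1, the ubiquitin ligase that removes class II molecules from the surface, rose by 1.00 ± 0.12 in Gr1-negative (adjusted p = 3.03e-05) and 0.93 ± 0.12 in Gr1-positive cells (adjusted p = 3.94e-05) between days 2 and 4. Marchf8, a related ligase, fell by 0.38 ± 0.12 in Gr1-negative cells (adjusted p = 0.0412). Ctss, the cathepsin that digests the invariant chain, went from 12.41 to 12.64 in Gr1-positive cells (adjusted p = 0.0835). The median step of the list was 0.03 for Gr1-negative and 0.10 for Gr1-positive cells.

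Interferon gamma is the classical inducer of Ciita in macrophages, and 9 of 10 genes of its signalling list were measured. Between days 2 and 4, 5 of the 9 rose in Gr1-negative cells and none fell, with a median of 0.42, where 8.15% of all genes rose. In Gr1-positive cells the count was 5 up and 1 down, with a median of 0.28, where 11.8% of all genes rose. Irf8, a transcription factor of myeloid cells, rose by 0.84 ± 0.16 in Gr1-negative (adjusted p = 0.00121) and 1.22 ± 0.16 in Gr1-positive cells (adjusted p = 3.49e-05). Irf1, which acts at the Ciita promoter, rose by 0.72 ± 0.14 (adjusted p = 0.0012) and 0.62 ± 0.14 (adjusted p = 0.00293). Ifng itself, made by T and NK cells, went from 6.74 to 9.50 in Gr1-positive cells (6.82-fold, adjusted p = 2.55e-05). Its mean went from 6.73 to 8.26 in Gr1-negative cells. Whether interferon gamma acted on Ciita in these cells was not tested. At day 1 none of the 9 passed between the subsets.

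Genes whose 8 group means followed Ciita most closely, among 2837 genes that span at least 1 log2 unit, were Lrrk1 (r = 0.99), Tbc1d8 (0.99), Kif21b (0.99), Zmynd15 (0.98) and Tespa1 (0.98). Lrrk1 is a kinase and Kif21b a kinesin motor. The mean of Cd74, H2-Aa, H2-Ab1 and H2-Eb1 was followed most closely by Il21r (0.96), a cytokine receptor, Klrk1 (0.96), an activating receptor of NK and T cells, Irf4 (0.95), a transcription factor of lymphocytes and dendritic cells, Satb1 (0.95) and Grap2 (0.95). These r values over 8 points describe likeness of pattern, chosen from many genes.

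Markers of other cell types were also read, and the part of those cells in these results was not tested. All 12 dendritic cell markers were measured. At day 1, 7 of the 12 were higher in Gr1-negative cells and none lower, where 0.682% of all genes were higher and 0.176% lower. The median difference of the list was 1.37. Its mean level ran from 7.34 to 7.50 in the Gr1-positive and from 8.51 to 9.14 in the Gr1-negative arrays. The 7 include Ccr7, the homing receptor of migrating dendritic cells (3.23 ± 0.32, adjusted p = 2.35e-05), Kmo (2.29 ± 0.30, adjusted p = 0.000364) and Clec9a, a receptor of cross-presenting dendritic cells (1.60 ± 0.22, adjusted p = 0.000601). At day 4, 5 of the 12 were higher, where 0.547% of all genes were. The mean level then ran from 8.63 to 8.85 against 9.41 to 9.99. Between days 2 and 4, 9 of the 12 rose in Gr1-negative cells (median 1.15), where 8.15% of all genes rose. In Gr1-positive cells 7 rose (median 0.94), where 11.8% of all genes did. From day 4 to day 8, 4 of the 12 fell in Gr1-negative cells (median -0.41), where 7.34% of all genes fell.

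Of the 8 B cell markers, 7 were measured, with means over the list between 6.35 and 7.22 in all arrays. Between the subsets 1 of the 7 passed at day 2 and none at days 1, 4 and 8. It was Cd22, a sialic acid receptor of B cells, which was higher in Gr1-negative cells (0.95 ± 0.18, adjusted p = 0.00688), where 2.85% of all genes were. The median difference of the list on that day was -0.06. Between days 2 and 4, 3 of the 7 rose in each subset, Cd79b, Cd22 and Fcrla, while Cd79a went from 5.55 to 5.38 in Gr1-positive cells (adjusted p = 0.44). Among 9 measured T and NK cell markers, 8 rose in Gr1-positive (median 2.64) and 5 in Gr1-negative cells (median 1.19) over that step, against the same shares. Plasmacytoid dendritic cell markers rose in 5 of 6 in Gr1-positive cells (median 1.34) and in 1 of 6 in Gr1-negative cells, against the same shares. Between the subsets none of the 6 passed at day 1 (median 0.21). At day 4, 3 of the 6 were lower in Gr1-negative cells (median -1.04), where 0.171% of all genes were. They were Siglech (-1.94 ± 0.22, adjusted p = 7.77e-05), Ccr9 (-2.07 ± 0.30, adjusted p = 0.00129) and Ly6d (-1.65 ± 0.19, adjusted p = 7.29e-05). No marker is listed at 0, because these signals have no 0.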

How the data were processed

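The values are log2 signals as the authors deposited them. RMA is the tool named in the submitters' processing notes, with no version given there, and raw scans were not used here. The table holds 35556 probe sets with values from 2.3432 to 13.949. Of these, 21789 name 1 gene in the platform's gene table, 1621 name several and were left out, and 12146 name none. Genes with several probe sets were read from the one of highest mean, giving 19938 genes named through the GRCm38.p6 RefSeq table (21698 probe sets matched). Groups were read from the labels.

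Tests used limma 3.58.1 in R 4.3.3, with statmod 1.5.0, 1 mean per group over all 22 arrays and p-values adjusted by Benjamini-Hochberg separately for each of 16 comparisons, so the single Gr1-positive array of day 8 borrows the spread of the other groups. Same-numbered arrays of a day deviated together: over genes at or above the median level all 9 pairs correlated above 0.1 (0.246 to 0.864), and over all genes 8 of 9 did (0.098 to 0.646). Of the Gr1-negative arrays of days 1, 2 and 4, 9 of 9 matched the Gr1-positive array of their own number best. The main fit leaves this pairing out, so a fit with day and number as a block was run as an alternative. Steps and subset differences that use the same arrays are not independent. Figures used matplotlib 3.10.9 in Python 3.11.15.

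The genes and lists were chosen with earlier results of these data known. Genes outside the 10 were named by rule: for a list, at most 4 with the smallest adjusted p in the comparison described, and for likeness the 5 highest r. Promoter stretches inside an annotated gene were not printed. H2-Ea is a gene of the endosomal list and was named after its values were seen.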

Additional observations from a re-analysis of the deposited data

How the results depend on the processing

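Counts of the 9 genes past the threshold that moved by over 1.5 times were few. Between days 1 and 2 in Gr1-negative cells none passed, against 1 with only genes at or above the median level, 2 with array weights and 1 without both day 2 arrays numbered 1. Array weights took the calls of that step over all genes from 973 to 2823. From day 4 to day 8 the count went from 2 to 1 in Gr1-negative cells with only the groups compared. In Gr1-positive cells it went from 0 to 1 after quantile normalization, 1 with genes at or above the median level, 2 with array weights and 1 with the random replicate block (correlation 0.278). From day 2 to day 4 in Gr1-positive cells it went from 6 to 3 without both day 2 arrays numbered 1.

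Leaving out 1 array at a time, the count of the subset difference ran from 4 to 5 at day 1, 2 to 4 at day 2 and 3 to 3 at days 4 and 8. In Gr1-negative cells it ran from 0 to 1 for days 1 to 2, 4 to 5 for days 2 to 4, 0 to 2 for days 4 to 8, 4 to 4 for days 1 to 4 and 1 to 3 for days 1 to 8. In Gr1-positive cells it ran from 0 to 0 for days 1 to 2, 4 to 5 for days 2 to 4, 5 to 7 for days 1 to 4 and 0 to 1 for days 4 to 8, and it was 0 for the changes of the subset difference.

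With the replicate block of day and number as a fixed term, 6 genes passed at day 1, 4 at day 2, and 3 at days 4 and 8, so the pairing added H2-Eb1 and H2-Ab1 at day 1 and changed no other call between the subsets. The number alone, whose arrays across days correlated above 0.1 in 7 of 15 pairs, added H2-DMa from day 1 to day 4 in Gr1-negative cells (adjusted p = 0.0231) and H2-Ab1 from day 2 to day 4 in Gr1-positive cells (adjusted p = 0.0382). Of 787 single-gene values under alternatives, 696 stayed on the same side of the threshold in the same direction, 49 lost the call, 42 gained it and 0 reversed. Ciita at day 2 was lost with only the groups compared (adjusted p = 0.0561) and without both day 2 arrays numbered 1 (0.54, adjusted p = 0.274).

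Over all genes the calls varied more: 171 at day 1 (113 to 747 over alternatives that leave out no single array), 705 at day 2 (307 to 3049), 143 at day 4 (60 to 704) and 404 at day 8 (252 to 1462). Steps had 973 for days 1 to 2 (942 to 2823), 2957 for days 2 to 4 (2745 to 6161) and 2096 for days 4 to 8 (1670 to 4777) in Gr1-negative cells, and 58 (0 to 1842), 3837 (2422 to 5683) and 1238 (792 to 3168) in Gr1-positive cells. Changes of the subset difference had 0 (0 to 18), 3 (2 to 191) and 19 (7 to 175). Signals near the top of the range and the single day 8 array limit the precision.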

Other observations

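Of the 12 genes of class I presentation, the pathway that shows peptides of the cytosol to CD8 T cells, 10 were measured. Between days 2 and 4, 3 of the 10 rose in Gr1-negative cells (median 0.31) and 4 in Gr1-positive cells (median 0.39), and none fell. Nlrc5, the class I counterpart of Ciita, rose by 0.41 ± 0.12 in Gr1-negative (adjusted p = 0.0266) and 0.53 ± 0.12 in Gr1-positive cells (adjusted p = 0.00368) by limma. Tap1, a subunit of the peptide transporter, rose by 0.84 ± 0.21 (adjusted p = 0.0101) and 0.87 ± 0.21 (adjusted p = 0.0061). None of the 10 passed between the subsets at day 1 or day 4.

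Neutrophil markers, all 10 measured, ran from 8.19 to 8.52 as a list mean in the Gr1-positive arrays of day 1 and from 7.33 to 7.77 in the Gr1-negative ones. On that day 4 of the 10 were lower in Gr1-negative cells, where 0.176% of all genes were.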
